A study of Mus musculus with 9 samples.

Results

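Splenic T cells kept in medium conditioned by stromal cells were compared with T cells of the same mice kept in unconditioned medium. The comparison rested on 6 of the 9 RNA-seq samples of the series, 3 in stromal medium and 3 in unconditioned medium, chosen by their labels, and on all 2889 genes of the deposited sample table. Polyclonal CD3+ T cells were taken from the spleens of 3 wild-type C57BL/6 mice by negative selection, a purification that removes other cells and leaves the T cells unbound. Cells of each mouse were divided over 3 media for 4 h: unconditioned RPMI, medium conditioned by stromal cells, and medium conditioned by adipocytes. No agent that stimulates the T cell receptor is named for any group. The source of the stromal cells and the age and sex of the mice are unstated in the sources used here, and the unconditioned medium has been near no cells of any kind. Values are written in the order of mice 1, 2 and 3 throughout.

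Conditioned medium carries what cells release into it, including cytokines, lipids and metabolites, and is also depleted of nutrients those cells took up. Interferons are cytokines that bind surface receptors coupled to Janus kinases, which phosphorylate STAT transcription factors. Interferon gamma acts chiefly through STAT dimers at DNA elements called GAS, and type I interferons through a complex that holds STAT2 and IRF9 at elements called ISRE. Both lead to a set of large GTPases, chemokines and antiviral proteins. Resting splenic T cells keep a programme of homing and egress receptors that falls when they receive signals from cytokines or antigen.

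All values are read counts divided by 1 size factor per library, called normalized counts here. A fold change is the mean of the 3 within-mouse differences of log2(normalized count + 1), and a gene is called higher or lower where limma's Benjamini-Hochberg adjusted p over the 2868 genes tested was under 0.05. Reads on the listed genes ranged from 6522742 to 13758643 over the 6 libraries. The sample table holds genes that the authors had called changed in 1 or both of their own comparisons on these samples: 493 are in their stromal table, and 2396 are in their adipocyte table alone. Of the tested genes 58.1% were called in either direction: 21.4% were called higher in stromal medium and 36.6% lower, so a count of list members is read against those shares. The median gene differed by -0.17 on the log2 scale.

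The guanylate binding proteins and immunity-related GTPases, large GTPases that interferons induce and that act on membranes around intracellular microbes, were among the largest rises. All 10 tested guanylate binding protein genes, of 11 on the list, and all 6 tested immunity-related GTPase genes, of 16 on the list, were higher in stromal medium. The authors' stromal table already held each of these 16, so their calls repeat a selection made on the same samples. Gbp2 (ENSMUSG00000028270) was at 6924, 5869 and 5057 normalized counts in unconditioned medium, 100207, 39308 and 56331 in stromal medium and 11136, 13494 and 4343 in adipocyte medium (log2 fold change 3.36, SE 0.30, limma adjusted p = 6.84e-06). Every stromal library stood above every library of the other media, and the stromal libraries themselves spread widely, with mouse 1 the highest. Gbp11 (ENSMUSG00000092021), with the largest rise of the family, went from 206, 194 and 172 to 6182, 4956 and 5309 against 614, 667 and 269 in adipocyte medium (log2 fold change 4.84, SE 0.22, limma adjusted p = 4.77e-07). Here the 3 stromal libraries lay close together, and no other library came near them. Gbp5, whose protein also promotes inflammasome assembly, was at 1389.8, 1251 and 1152 and then 19409, 7235 and 12265 (log2 fold change 3.25, SE 0.35, limma adjusted p = 2.04e-05). In adipocyte medium Gbp5 was at 2099.8, 2515 and 726, a range that overlaps the unconditioned values.

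The other 7 guanylate binding protein genes rose as well. Gbp3 went from 2528, 2449 and 2041 to 14714, 8358 and 10126 (log2 fold change 2.21, SE 0.23, limma adjusted p = 1.76e-05), and Gbp7 from 5095, 4912 and 4917 to 26372, 16041 and 18955 (log2 fold change 2.01, SE 0.25, limma adjusted p = 4.84e-05). For both the groups did not overlap, and the stromal library of mouse 1 was again the highest. Gbp4, Gbp8 and Gbp9 share exon bases with one another in the GENCODE M21 annotation, as do Gbp6 and Gbp10 with a further gene model, so reads there cannot be given to 1 gene. Their log2 fold changes were 2.23, 1.81 and 0.99, and 3.30 and 3.03. The family's median was 2.63, with a range of 0.99 to 4.84.

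The immunity-related GTPases moved over a narrower range. Igtp (ENSMUSG00000078853, also known as Irgm3) was at 15152, 15067 and 12609 in unconditioned medium, 98287, 68495 and 82539 in stromal medium and 40226, 44318 and 23318 in adipocyte medium (log2 fold change 2.53, SE 0.17, limma adjusted p = 1.53e-06). Irgm1, a regulator of the other family members and of autophagy, went from 7947, 8327 and 6937 to 47845, 33352 and 38728 (log2 fold change 2.36, SE 0.16, limma adjusted p = 1.53e-06). The groups were well apart for both genes, and adipocyte libraries lay between them. Tgtp1, an effector GTPase first found in T cells, was at 23894, 23116 and 21003 and 185331, 118347 and 151026, with 109663, 116322 and 59956 in adipocyte medium (log2 fold change 2.72, SE 0.19, limma adjusted p = 1.64e-06). Its near-identical neighbour Tgtp2 rose by 2.45, and reads may be divided between the pair. Iigp1, which loads onto the vacuoles of intracellular parasites, went from 957, 897 and 693 to 9709.7, 4667 and 6534 (log2 fold change 2.98, SE 0.25, limma adjusted p = 4.55e-06). Irgm2, which shares exon bases with Igtp, had the smallest rise of the family at 1.73.

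The 16 GTPase genes shared an order among the stromal libraries. In 16 of 16 the library of mouse 1 was the highest and that of mouse 2 the lowest. That order held in 785 of all tested genes, or 27.4%, and in 199 of the 614 genes called higher. Reads may be shared among some of the 16, as given above, so they are not 16 separate observations. The median difference over the 16 genes was 2.68 in mouse 1, 2.17 in mouse 2 and 2.62 in mouse 3. All 16 were also higher in stromal than in adipocyte medium in the same fit, where 57.3% of all tested genes were and 91.3% were called in either direction. In 15 of them each stromal library stood above each adipocyte library. The exception was Tgtp2, with 57406, 40239.8 and 46973 in stromal and 41615, 43483 and 24261 in adipocyte medium. B cell marker genes had this order as well: all 9 tested, of 23 on that list, were highest in the stromal library of mouse 1 and lowest in that of mouse 2. Their summed level was 13352, 8612 and 10450 in stromal and 10748, 8130 and 9515 in unconditioned libraries, the same order in both media. In unconditioned libraries the guanylate binding protein genes summed to 43885, 39348 and 35872. The immunity-related GTPase genes summed there to 61994.5, 61202 and 53401. The part of B cells in the GTPase values was not tested.

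**Figure D1:**
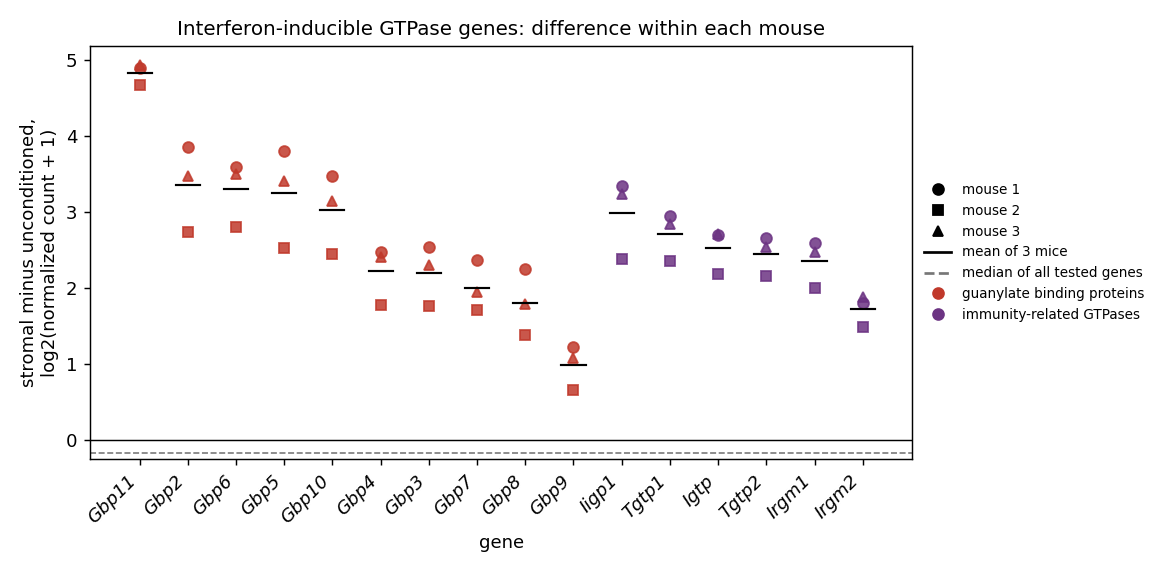
Difference between stromal and unconditioned medium within each mouse for the 16 GTPase genes, on the log2(normalized count + 1) scale (vertical axis), with genes on the horizontal axis. Symbols are mice, bars are the means of 3 mice, and the dashed line is the median of all tested genes (-0.17). Every point lies above 0, and mouse 2 gave the smallest difference in each gene.

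Promoter sequence was looked at for these genes because they moved together. RefSeq windows of 250 bases before to 50 bases after the transcription start (GRCm38.p6) were found for 9 of the 16, with 2 windows for Gbp3 and 1 for each of the others. Each was searched on both strands for GAAA, any 2 bases and GAAA, the core of an ISRE, and for TTCNNNGAA, the core of a GAS element. The ISRE core was in at least 1 window of 9 of the 9 genes and the GAS core in that of 6, and 1 of the windows of Gbp3 held neither. Over all 27025 genes with a window the shares were 3.99% and 9.55%. The windows of Igtp and Irgm2 are the same over long stretches around their cores, so the 9 genes are not separate observations. The letters of the 2 cores can overlap. Among genes at least 2-fold higher, 28 of 170 with a window (16.5%) held the ISRE core, against 12 of 266 (4.51%) of those at least 2-fold lower and 3.80% of those not past the threshold. These 28 include the 9 GTPase genes. A match describes letters and says nothing of binding in these cells.

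The windows of 4 GTPase genes are shown for the place of these cores, with those of Socs1 and Irf1, which are described further on. Capitals mark the matches. Gbp2 (chr3:142620413-142620712, plus strand) and Gbp5 (chr3:142496684-142496983, plus strand) lie on 1 chromosome, Irgm1 (chr11:48871371-48871670, minus strand) and Igtp (chr11:58199306-58199605, plus strand) lie on another, as does Irf1 (chr11:53769764-53770063, plus strand), and Socs1 is at chr16:10785487-10785786 on the minus strand.
Gbp2: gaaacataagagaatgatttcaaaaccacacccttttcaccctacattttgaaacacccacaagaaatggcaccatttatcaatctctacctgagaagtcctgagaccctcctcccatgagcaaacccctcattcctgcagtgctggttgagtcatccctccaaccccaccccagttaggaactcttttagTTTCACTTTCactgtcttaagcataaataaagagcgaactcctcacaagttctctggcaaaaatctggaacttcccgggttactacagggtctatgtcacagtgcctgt
Gbp5: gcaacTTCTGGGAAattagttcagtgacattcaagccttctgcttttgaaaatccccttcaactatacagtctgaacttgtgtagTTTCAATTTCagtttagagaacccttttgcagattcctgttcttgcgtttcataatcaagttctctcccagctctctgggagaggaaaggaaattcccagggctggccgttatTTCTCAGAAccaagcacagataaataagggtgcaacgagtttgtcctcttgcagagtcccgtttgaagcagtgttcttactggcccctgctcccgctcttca
Irgm1: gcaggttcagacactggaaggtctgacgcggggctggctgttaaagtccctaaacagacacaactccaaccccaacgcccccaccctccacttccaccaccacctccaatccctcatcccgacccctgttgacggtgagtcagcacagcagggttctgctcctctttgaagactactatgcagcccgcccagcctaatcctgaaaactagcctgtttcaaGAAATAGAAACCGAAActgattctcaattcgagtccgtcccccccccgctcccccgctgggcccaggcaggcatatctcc
Igtp: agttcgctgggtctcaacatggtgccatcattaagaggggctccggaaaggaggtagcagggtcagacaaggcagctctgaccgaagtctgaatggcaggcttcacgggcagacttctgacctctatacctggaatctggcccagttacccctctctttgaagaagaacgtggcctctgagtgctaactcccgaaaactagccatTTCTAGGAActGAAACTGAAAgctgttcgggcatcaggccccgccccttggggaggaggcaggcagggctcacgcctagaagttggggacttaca
Socs1: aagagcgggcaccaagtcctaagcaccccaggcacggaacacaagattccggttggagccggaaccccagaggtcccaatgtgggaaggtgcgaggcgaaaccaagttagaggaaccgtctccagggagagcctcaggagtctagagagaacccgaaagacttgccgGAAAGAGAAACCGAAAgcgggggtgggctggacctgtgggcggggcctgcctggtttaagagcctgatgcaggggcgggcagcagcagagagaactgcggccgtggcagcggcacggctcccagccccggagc
Irf1: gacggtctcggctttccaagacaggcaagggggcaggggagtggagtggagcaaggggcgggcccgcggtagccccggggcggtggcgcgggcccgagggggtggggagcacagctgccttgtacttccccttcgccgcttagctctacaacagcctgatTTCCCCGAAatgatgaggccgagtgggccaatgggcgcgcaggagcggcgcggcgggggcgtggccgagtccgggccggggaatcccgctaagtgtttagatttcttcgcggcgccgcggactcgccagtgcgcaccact
The ISRE core of Gbp2 begins 59 bases before the start, and reads on the opposite strand. Igtp carries a GAS core and an ISRE core parted by a pair of bases. Irgm1 and Socs1 each hold 2 overlapping ISRE cores, and Irf1 holds a GAS core and no ISRE core in this window.

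Transcripts of the signalling chain itself were also higher. Of 11 tested genes for interferon receptors, kinases, STATs and IRF factors, from a list of 23, 7 rose, 2 fell and 2 did not pass the test, with a median of 1.28. The authors' stromal table held 8 of the 11. Stat2, of the type I complex, rose by 1.30 and Irf9, the DNA-binding partner in that complex, by 0.85 (adjusted p 2.22e-05 and 8.21e-06).

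Socs1 (ENSMUSG00000038037), which encodes a feedback inhibitor of Janus kinases, had tight replicates: 1982, 2258 and 2400.5 in unconditioned, 8779.9, 8871 and 8382 in stromal and 2835, 2517 and 2103 in adipocyte medium (log2 fold change 1.97, SE 0.11, limma adjusted p = 9.34e-07). Its stromal libraries did not follow the mouse order of the GTPases. Usp18, which encodes a brake on the type I receptor, went from 618, 612 and 623 to 2063, 2201 and 1581 (log2 fold change 1.64, SE 0.15, limma adjusted p = 6.36e-06). Irf1, an early interferon gamma target and itself an activator of GTPase promoters, was at 17375, 17512 and 16388 in unconditioned medium, 44975, 37867 and 41539.5 in stromal medium and 54176, 52652 and 37505 in adipocyte medium (log2 fold change 1.28, SE 0.12, limma adjusted p = 6.84e-06). Both conditioned media were above unconditioned medium with no overlap between groups, and they overlapped each other (stromal minus adipocyte -0.20, adjusted p = 0.121). Irf8, a factor of myeloid and B cells that interferon gamma also induces, rose from 1104, 1126 and 1172 to 3565, 2533 and 2721 (log2 fold change 1.36, SE 0.12, limma adjusted p = 5.13e-06).

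Among the members that fell was the Janus kinase gene Tyk2, at 8493, 8203 and 7959 in unconditioned and 4724, 4875 and 5562 in stromal medium (log2 fold change -0.70, SE 0.09, limma adjusted p = 7.05e-05). Its groups did not overlap.

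**Figure D2:**
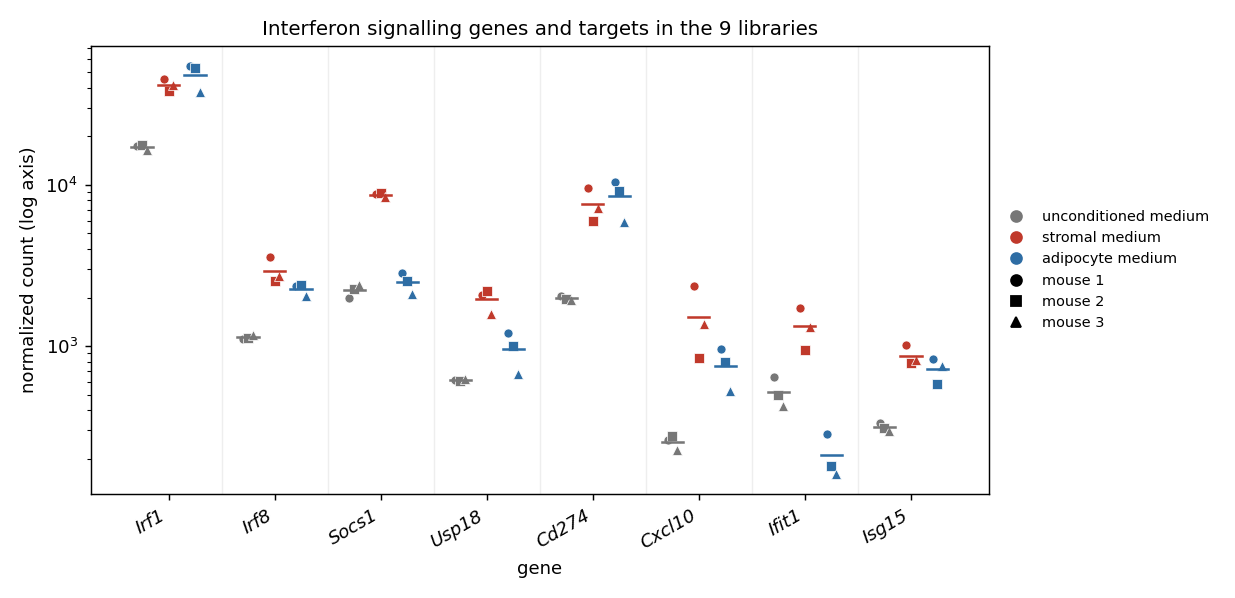
Normalized counts (log axis) of 8 interferon signalling and target genes in each of the 9 libraries. Colours are media, symbols are mice and bars are means of 3 libraries. Stromal libraries lie above unconditioned libraries for all 8 genes, and stromal and adipocyte libraries overlap for Irf1, Cd274, Cxcl10 and Isg15.

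Among 14 tested further interferon gamma targets, of 37 on the list, 9 were higher, 1 was lower and 4 did not pass the test, with a median of 1.08. Cxcl10, a chemokine that draws activated T cells, was at 263, 278 and 226 in unconditioned and 2351, 838 and 1371 in stromal medium (log2 fold change 2.45, SE 0.25, limma adjusted p = 1.43e-05). The 3 stromal libraries were above all unconditioned ones and mouse 1 was again the highest and mouse 2 the lowest. Its relative Cxcl9 rested on few reads, 2, 5 and 5 in unconditioned and 166, 69 and 30 in stromal libraries, so its log2 fold change of 3.69 is imprecise (SE 0.60, limma adjusted p = 0.000342). It was 2.89 without the stromal library of mouse 1. Cd274, which encodes the inhibitory ligand PD-L1, went from 2034, 1968 and 1939 to 9570.3, 5962 and 7216 (log2 fold change 1.91, SE 0.16, limma adjusted p = 4.27e-06), with 10457, 9105 and 5837 in adipocyte medium. Stromal and adipocyte values of Cd274 overlapped. The serpin genes Serpina3g and Serpina3f, protease inhibitors made by activated T cells, rose by 2.91 and 2.84. Serpina3f was higher still in adipocyte medium, at 1238, 1140.3 and 751 against 609, 741 and 510.1 in stromal medium. Zbp1, a sensor of Z-form nucleic acid, went from 2007, 2166 and 1829.6 to 5549, 4309 and 4150.2 (log2 fold change 1.21, SE 0.11, limma adjusted p = 5.62e-06), and its adipocyte libraries (1614, 1822 and 1433) were below the unconditioned ones.

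Type I interferon antiviral genes were divided. Of 14 tested, from a list of 65, 8 rose, 5 fell and 1 did not pass, with a median of 0.81. Rescaling the libraries by the median of ratios, TMM or the median of ratios over the 6 libraries gave 1 gene lower in each case, and 2 were lower without the unconditioned library of mouse 1 or of mouse 2, and 3 without the stromal library of mouse 2 or of mouse 3. Rtp4, an antiviral chaperone, was at 909.8, 729 and 706 and 3821, 2633 and 3015 (log2 fold change 2.00, SE 0.14, limma adjusted p = 1.64e-06), and Oasl2, an oligoadenylate synthetase relative, at 663, 631 and 584 and 2148, 1499 and 1679 (log2 fold change 1.49, SE 0.13, limma adjusted p = 4.95e-06). Isg15, a ubiquitin-like modifier, went from 336, 313 and 299.6 to 1016, 782 and 824 (log2 fold change 1.46, SE 0.13, limma adjusted p = 5.16e-06). In all 3 the stromal libraries were clear of the unconditioned ones. Ifit1, which binds foreign RNA, parted the conditioned media: 647, 495 and 426 in unconditioned, 1734, 949.8 and 1311 in stromal and 286, 182 and 162 in adipocyte medium (log2 fold change 1.33, SE 0.15, limma adjusted p = 2.74e-05). Its stromal values were the highest and its adipocyte values the lowest, and Ifit3b had the same order (233, 188 and 219.8, 806, 317 and 489.7 and 61.8, 57.6 and 49.8). Ifi208, a nucleic acid sensor gene of the p200 family, fell from 3826, 3682 and 4397 to 2437, 2121 and 2550.5 (log2 fold change -0.74, SE 0.11, limma adjusted p = 0.000153).

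The transcript of interferon gamma itself was low and rose. Ifng (ENSMUSG00000055170) was at 97.1, 132 and 119 in unconditioned, 321, 381 and 360.4 in stromal and 2119.9, 1609 and 1698 in adipocyte medium (log2 fold change 1.61, SE 0.16, limma adjusted p = 1.37e-05). The 3 groups did not overlap, and the adipocyte libraries were the highest (stromal minus adipocyte -2.34, adjusted p = 4.21e-07). The 16 GTPase genes had been higher in stromal than in adipocyte medium. The part of Ifng in the GTPase values was not tested.

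Cytokine receptor signals other than interferon also reach STATs, and the list of STAT feedback and target genes held 19 tested members of 40. In stromal medium 14 rose, 1 fell and 4 did not pass, with a median of 0.59. The kinase gene Pim2, a survival factor downstream of STAT5, was at 8744, 8298 and 7911 and 28635, 21713 and 29923 (log2 fold change 1.67, SE 0.11, limma adjusted p = 1.31e-06). Stat5a went from 18602, 15629 and 14104 to 42844, 44408 and 33032 (log2 fold change 1.31, SE 0.09, limma adjusted p = 1.53e-06), although it shares exon bases with Stat3 on the other strand and the libraries do not keep strand. Stat3 rose by 0.88. Bcl2, the anti-apoptotic factor that common-gamma-chain cytokines maintain, was at 2727, 2761 and 3322 in unconditioned, 6465, 7254 and 11260.5 in stromal and 3664, 3059 and 3509 in adipocyte medium (log2 fold change 1.47, SE 0.13, limma adjusted p = 6.33e-06). For each of these genes the unconditioned and stromal libraries did not overlap. The highest library of Bcl2 was the stromal one of mouse 3, unlike for the GTPases. Socs3 rose by 0.88 and the STAT5 feedback gene Cish by 0.76, and Il18r1, a receptor chain for interleukin 18, fell from 2188, 1831 and 2031 to 1011, 874 and 1104 (log2 fold change -1.02, SE 0.09, limma adjusted p = 6.33e-06). Of the 19, 16 were lower in stromal than in adipocyte medium and 3 were higher, against 34% and 57.3% of all tested genes. The authors' stromal table held 6 of the 19, and the others were listed for adipocyte medium alone, so this comparison is not free of that selection.

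Most of the tested genes that follow T cell receptor triggering did not pass the test. Of 27 tested early activation and AP-1 genes, from a list of 46, 10 rose, 1 fell and 16 did not pass, with a median of 0.15. Median of ratios scaling gave 19 higher and 0 lower. On the deposited scale 6 were higher without the stromal library of mouse 2 or the unconditioned library of mouse 1 or 3, and 6 were lower without the stromal library of mouse 2. Nr4a1 (ENSMUSG00000023034), an orphan nuclear receptor gene used as a reporter of receptor signalling, was at 27735, 24699 and 26713 in unconditioned and 21896, 29548 and 23226 in stromal medium (log2 fold change -0.09, SE 0.20, limma adjusted p = 0.699). The groups overlapped, and the sign of this difference turned under the 3 rescalings and in 3 of the fits that left out a library or mouse. Nr4a1 was called lower without the stromal library of mouse 2 (-0.39) and without mouse 2 (-0.27). In adipocyte medium Nr4a1 was at 133265, 76974 and 147124, far above both. Rgs1, which damps chemokine receptor signals, went from 2918, 2992 and 2884 to 6025, 6846 and 4967 (log2 fold change 1.01, SE 0.15, limma adjusted p = 0.00019), Atf3 from 807, 757 and 785 to 1508, 1306 and 1469 (log2 fold change 0.86, SE 0.11, limma adjusted p = 4.79e-05), and Junb from 19798, 19779 and 19617 to 28528, 35319 and 28209 (log2 fold change 0.63, SE 0.14, limma adjusted p = 0.00263). These 3 rose without overlap and stayed far below their adipocyte levels. In the comparison of the conditioned media 26 of the 27 were lower in stromal medium and 1 was higher, against 34% of all tested genes lower. The authors' stromal table held 0 of the 27, so each was listed for its call in adipocyte medium. Neither this comparison nor the share that passed in stromal medium is free of that selection. Of 14 NF-kB genes tested, from a list of 37, 5 rose, 2 fell and 7 did not pass, with 3 rises without mouse 1 and 4 falls without mouse 2. By median of ratios scaling 8 were higher and 1 lower. Nfkb1, encoding the p105 precursor, rose by 0.50, and the cytokine gene Lta fell from 723, 835 and 898 to 389.8, 489 and 465 (log2 fold change -0.87, SE 0.11, limma adjusted p = 6.8e-05).

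Effector genes rose in part. Of 24 tested cytokine and cytotoxic genes, from a list of 35, 13 rose, 2 fell and 9 did not pass, with a median of 0.88. Without the stromal library of mouse 2, 4 fell. In the comparison of the conditioned media 22 of the 24 were lower in stromal medium, against 34% of all tested genes. The authors' stromal table held 6 of the 24, and the others were listed for adipocyte medium alone, so this comparison is not free of that selection. Gzmb, encoding granzyme B, was at 741, 585 and 545 in unconditioned and 1419, 1866 and 1360.3 in stromal medium (log2 fold change 1.31, SE 0.15, limma adjusted p = 2.38e-05). Prf1, encoding the pore protein perforin through which granzymes enter a target cell, went the other way, from 1747, 1861 and 1674 to 417, 550.1 and 552 (log2 fold change -1.81, SE 0.25, limma adjusted p = 0.000109). Neither gene's groups overlapped, and the 2 transcripts moved in opposite directions. In adipocyte medium Prf1 was at 1512, 786 and 2082, overlapping unconditioned medium. Il22, a cytokine that acts on epithelia, rested on 2, 4 and 1 reads in unconditioned and 50, 51 and 78 in stromal libraries (log2 fold change 4.02, SE 0.49, limma adjusted p = 4.5e-05). Without the stromal library of mouse 3 its log2 fold change was 3.35. The chemokine gene Ccl3 went from 58.6, 86.9 and 74.5 to 239, 266 and 305 (log2 fold change 1.88, SE 0.24, limma adjusted p = 5.87e-05), and Ccl4 rose by 1.18. Il4, which type 2 helper cells secrete, went from 144, 185 and 199 to 326, 556 and 319 (log2 fold change 1.14, SE 0.27, limma adjusted p = 0.00433) and reached 8856, 4358 and 6172 in adipocyte medium.

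Natural killer cells share Gzmb and Prf1, and bulk values cannot tell fewer cells of a type from less RNA per cell. Of 21 natural killer markers 6 were tested: 1 rose, 2 fell and 3 did not pass, and median of ratios scaling gave 4 higher and 2 lower. On the deposited scale Gzmb was the 1 that rose, and Prf1 and Klrd1 were the 2 that fell. The summed level of the 6 was 9378 to 10528 in stromal libraries and 14473 to 16135 in unconditioned ones. Prf1 is itself part of that sum. Klrd1, a receptor chain of natural killer cells and some CD8 T cells, fell from 8621, 8582 and 9716 to 3912, 3971 and 4264 (log2 fold change -1.15, SE 0.09, limma adjusted p = 4.27e-06). The part of natural killer cells in the fall of Prf1 was not tested.

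Genes of resting T cells and of egress fell in part. Of 15 tested naive and resting T cell genes, from a list of 34, 8 fell, 2 rose and 5 did not pass, with a median of -0.72. Median of ratios scaling gave 8 falls and 6 rises, and 1 gene rose without the stromal library of mouse 2 or the unconditioned library of mouse 1 or 3. Klf2 (ENSMUSG00000055148), the transcription factor that maintains quiescence and egress receptors, was at 52001, 54727 and 59129 in unconditioned, 27588, 25556 and 30596 in stromal and 52412, 45192 and 63858 in adipocyte medium (log2 fold change -0.99, SE 0.09, limma adjusted p = 8.97e-06). The stromal libraries were below all others, while adipocyte and unconditioned libraries overlapped. S1pr1, a gene that KLF2 is known to activate and the sphingosine phosphate receptor needed to leave lymphoid tissue, went from 83505, 86948 and 86469 to 38447, 39709 and 43227 (log2 fold change -1.08, SE 0.15, limma adjusted p = 0.000125). It was also low in adipocyte medium, at 42413, 34713 and 66508. Another sphingosine phosphate receptor gene, S1pr4, fell from 9461, 10304 and 9913 to 4632, 5016 and 5120.1 (log2 fold change -1.01, SE 0.07, limma adjusted p = 2.14e-06). Dapl1, a marker of naive T cells, had the largest fall of the list, from 2011, 2833 and 2525 to 563, 718 and 760.4 (log2 fold change -1.85, SE 0.13, limma adjusted p = 1.96e-06), and Klf4, a related quiescence factor, rose from 140.0, 141 and 137 to 432, 453 and 371 (log2 fold change 1.58, SE 0.16, limma adjusted p = 1.28e-05). No pair of groups in this paragraph overlapped between stromal and unconditioned medium.

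Surface adhesion genes were mostly lower. Of 14 tested integrin and adhesion genes, from a list of 38, 8 fell, 2 rose and 4 did not pass, with a median of -0.46, and median of ratios scaling gave 5 falls and 3 rises. Itgae and Itgb7 encode the chains of the integrin that binds E-cadherin on epithelium. Itgae was at 3231, 3249 and 4027 and 1252, 1366 and 1227 (log2 fold change -1.44, SE 0.10, limma adjusted p = 1.53e-06), and Itgb7 at 22036, 24664 and 24984 and 9223, 9099.6 and 9958 (log2 fold change -1.34, SE 0.08, limma adjusted p = 9.34e-07). Both were far apart between the groups. Itgb2, the shared chain of the leukocyte integrins such as LFA-1, fell from 14453, 15087 and 16138 to 6753, 8584 and 7975 (log2 fold change -0.98, SE 0.10, limma adjusted p = 1.25e-05) and was at 19296, 16947 and 20136 in adipocyte medium. Against these, Itgb3, a vitronectin receptor chain, rose from 4776, 4561 and 3989 to 10316, 10286 and 11016 (log2 fold change 1.25, SE 0.09, limma adjusted p = 1.64e-06), and Jaml, a junctional adhesion molecule, from 411, 368 and 365 to 1464, 1163 and 912 (log2 fold change 1.60, SE 0.15, limma adjusted p = 9.48e-06). Adgre5, the adhesion receptor CD97, went from 26092, 29844 and 29749 to 6464, 8565 and 8349.6 with 25807, 25338 and 29268 in adipocyte medium (log2 fold change -1.88, SE 0.09, limma adjusted p = 4.77e-07). It shares exon bases with Ddx39 on the other strand. Unconditioned and adipocyte libraries of Adgre5 overlapped, and the stromal libraries were far below both.

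The title of the series names the cytoskeleton and forces at the T cell receptor. Of 18 tested genes of actin and its small GTPases, from a list of 97, 7 fell, 4 rose and 7 did not pass, and median of ratios scaling turned this to 8 higher and 3 lower. Wasf1, a WAVE complex subunit that drives actin branching, was low in unconditioned medium (32.9, 20.9 and 21.3) and rose to 347, 212 and 279 (log2 fold change 3.43, SE 0.37, limma adjusted p = 2.02e-05). Marcksl1, a membrane-bound actin regulator, went from 2131, 1950.5 and 2108 to 7024, 4060.4 and 5786 (log2 fold change 1.41, SE 0.12, limma adjusted p = 5.04e-06). Both were clear of the unconditioned libraries, and for Wasf1 the adipocyte libraries stayed low at 50.3, 67.5 and 18.6. Rhob, a small GTPase of endosomes, fell from 1024, 1128 and 1157 to 502, 365 and 375 (log2 fold change -1.43, SE 0.15, limma adjusted p = 1.54e-05) and was at 3275, 2379 and 3621 in adipocyte medium, above both. Rac2, the Rac GTPase of blood cells, was at 39272, 42797 and 42701 and 25235, 27826 and 27066 (log2 fold change -0.64, SE 0.08, limma adjusted p = 6.26e-05), and the unconventional myosin gene Myo1f at 6609, 6482 and 7214 and 3272, 3702 and 4345 (log2 fold change -0.85, SE 0.11, limma adjusted p = 6.46e-05).

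Of 8 tested genes of the T cell receptor and its proximal signalling, from a list of 47, 5 fell, 2 rose and 1 did not pass, with a median of -0.51. Median of ratios scaling gave 3 lower and 3 higher, and 0 were higher without the unconditioned library of mouse 1. Cd3e (ENSMUSG00000032093), a signalling chain of the receptor, was at 34061, 36079 and 36835 in unconditioned and 22698, 24552 and 23053 in stromal medium (log2 fold change -0.61, SE 0.08, limma adjusted p = 6.99e-05). Carmil2, which links CD28 to the actin skeleton, fell from 6986, 7197 and 7457 to 3314, 4058 and 3701 (log2 fold change -0.97, SE 0.09, limma adjusted p = 6.33e-06), and Dgkz, a kinase that limits diacylglycerol signals, from 18849.5, 20107 and 21243 to 11341, 12597 and 13176 (log2 fold change -0.70, SE 0.08, limma adjusted p = 3.44e-05). The groups of these 3 genes did not overlap. Among checkpoint and costimulatory receptors 3 of 14 tested rose, 4 fell and 7 did not pass, and median of ratios scaling gave 8 higher and 3 lower. Cd96 fell from 11416, 11753 and 12639.8 to 5495, 4551 and 5026 (log2 fold change -1.25, SE 0.09, limma adjusted p = 1.64e-06) and Btla from 2782, 2738 and 2873 to 1509, 1295 and 1393 (limma adjusted p = 5.53e-05). Havcr2, encoding TIM-3, rose from 104, 97.4 and 116 to 235, 313 and 268 (log2 fold change 1.35, SE 0.19, limma adjusted p = 0.000128).

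Most amino acid supply genes rose. ATF4 is a transcription factor made when amino acids run short or other stresses slow translation, and it drives amino acid synthesis and import. Of 20 tested genes of this axis, from a list of 54, 15 rose, 2 fell and 3 did not pass, with a median of 0.61, and the authors' stromal table held 4 of them. Psat1, an enzyme of serine synthesis, was at 2075, 2071 and 1916 in unconditioned, 4757, 4136 and 4523 in stromal and 1414, 1359.9 and 981 in adipocyte medium (log2 fold change 1.14, SE 0.11, limma adjusted p = 1.08e-05). Gpt2, which makes alanine in mitochondria, went from 389, 339 and 369.6 to 1025, 952 and 984 with 303, 296 and 179.8 in adipocyte medium (log2 fold change 1.43, SE 0.17, limma adjusted p = 3.98e-05). Both were highest in stromal and lowest in adipocyte medium, with no overlap. Mthfd2, a mitochondrial folate enzyme, rose from 2691, 2742 and 2880.1 to 6054, 6004 and 5275 (log2 fold change 1.06, SE 0.08, limma adjusted p = 3.37e-06), and Slc7a5, the large neutral amino acid transporter, from 6770.2, 6062 and 6339 to 13704, 10747 and 12156 (log2 fold change 0.93, SE 0.08, limma adjusted p = 6.28e-06). Atf4 itself was at 7017, 7061 and 7037 and 11803, 12481 and 10857 (log2 fold change 0.73, SE 0.10, limma adjusted p = 0.000114). It was higher still in adipocyte medium, at 29618, 24062 and 30853, so the transcripts of Atf4 and of Psat1 and Gpt2 differed in the order of the media. The ATF4 protein was not measured. Of the 20 genes 11 were higher and 9 lower in stromal than in adipocyte medium, against 57.3% and 34% of all tested genes. The core of the amino acid response element, TGATGNAA on either strand, was in the promoter window of 1 of the 13 higher genes of this list that have one (7.69%), against 4.51% of all windows.

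Sterol genes split by function. SREBP2 drives cholesterol synthesis and uptake when sterols are low, and LXR drives sterol export when they are high. Of 9 tested cholesterol synthesis and SREBP2 target genes, from a list of 28, 8 fell and 1 did not pass, with a median of -0.83. Sqle, squalene epoxidase, went from 2668, 2243 and 2730.2 to 1133, 916 and 999.8 (log2 fold change -1.32, SE 0.09, limma adjusted p = 1.53e-06), and Idi1, an isoprenoid isomerase, from 1645, 1354 and 1604 to 913, 549 and 733 (log2 fold change -1.09, SE 0.15, limma adjusted p = 0.000111). Both were clear of the unconditioned libraries. Median of ratios scaling gave 6 falls and 0 rises. In adipocyte medium Sqle was at 824, 692 and 753 and Idi1 at 764, 749.7 and 574, also below unconditioned medium.

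On the LXR and fatty acid list 5 of 8 tested genes rose, 1 fell and 2 did not pass, with a median of 0.69. Scd2, a desaturase that makes monounsaturated fatty acids, was at 3589, 2995 and 2857 in unconditioned, 13548, 11416 and 13661 in stromal and 401, 242 and 170.0 in adipocyte medium (log2 fold change 2.03, SE 0.18, limma adjusted p = 6.28e-06). The media did not overlap, with stromal libraries the highest and adipocyte libraries the lowest (stromal minus adipocyte 5.65, adjusted p = 6.91e-09). The sterol exporters Abcg1 and Abca1 had the same order. Abcg1 was at 4896, 4875 and 4570.5 in unconditioned, 9721, 9834 and 10806 in stromal and 1604, 1829.7 and 1519 in adipocyte medium (log2 fold change 1.08, SE 0.09, limma adjusted p = 4.35e-06), and Abca1 at 3785, 2763 and 2687, 5331, 4492 and 6249 and 867, 724 and 814 (log2 fold change 0.80, SE 0.12, limma adjusted p = 0.000195). Mylip, a ubiquitin ligase that LXR induces, went from 6197, 6010.5 and 6032 to 9120.4, 9389 and 8777 (log2 fold change 0.58, SE 0.09, limma adjusted p = 0.000221). Scd4, a desaturase paralog of Scd2 that could share its reads, had 8, 12 and 24 reads in unconditioned and 176, 254 and 155 in stromal libraries. Smpdl3a, a phosphodiesterase also known as an LXR target, fell from 4501, 4921 and 5245 to 2230.2, 2741 and 2304 (log2 fold change -1.01, SE 0.09, limma adjusted p = 4.94e-06). Fatty acid oxidation genes gave 1 rise, 6 falls and 12 that did not pass of 19 tested, and median of ratios scaling turned that to 10 rises and 2 falls. Without the stromal library of mouse 2, 4 rose. Cpt1a, the entry step of that pathway, fell from 3377, 3176 and 3362 to 2305, 1723 and 1852 (log2 fold change -0.76, SE 0.11, limma adjusted p = 0.000146) and was at 6899, 7810.2 and 6319 in adipocyte medium.

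**Figure D3:**
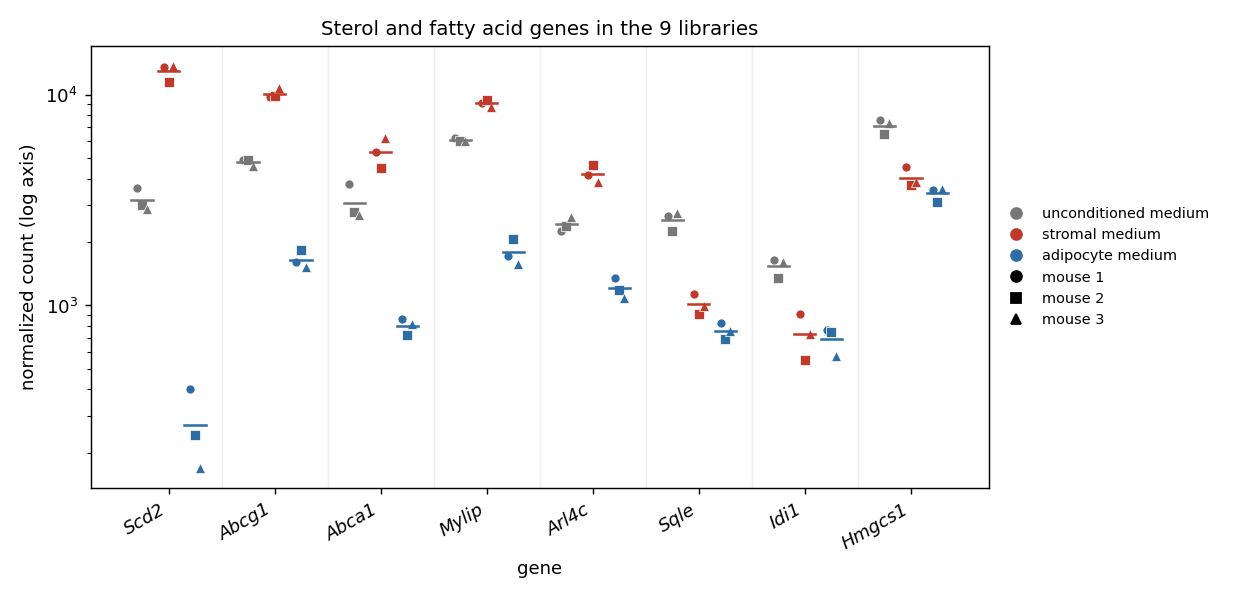
Normalized counts (log axis) of 8 sterol and fatty acid genes in each of the 9 libraries, with colours for media, symbols for mice and bars for means of 3 libraries. Scd2, Abcg1, Abca1, Mylip and Arl4c are highest in stromal and lowest in adipocyte medium, and Sqle, Idi1 and Hmgcs1 are below unconditioned medium in both.

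Smaller shifts marked growth and stress genes. Of 7 tested glycolysis and hypoxia genes 5 rose, 1 fell and 1 did not pass. The glycolytic enzyme gene Tpi1 was at 2434, 2437 and 2198 and 4573, 4462 and 4271 (log2 fold change 0.91, SE 0.10, limma adjusted p = 1.96e-05), with adipocyte medium at 2599, 2704 and 1879, near the unconditioned level. Of 8 ribosome biogenesis and MYC genes 7 rose and 1 did not pass, with a median of 0.33, and 4 rose without the stromal library of mouse 3 or the unconditioned library of mouse 1 or 3. Srm, spermidine synthase, went from 1187, 1287 and 1289.8 to 2398, 2360.0 and 2376 (log2 fold change 0.92, SE 0.09, limma adjusted p = 1.1e-05). Heat shock genes rose in 6 of 7 cases with a list median of 0.54, and in 3 of 7 without the library of mouse 2 in either medium or the unconditioned library of mouse 3. All 7 were lower than in adipocyte medium, against 34% of all tested genes. The authors' stromal table held 0 of the 7, so each was listed for its call in adipocyte medium. The chaperone gene Hsp90ab1 was at 52992, 49762 and 49066 and 92437, 81108 and 82095 (log2 fold change 0.75, SE 0.09, limma adjusted p = 3.38e-05). Of 26 tested proliferation genes 21 did not pass, 3 rose and 2 fell, and 1 rose without the stromal library of mouse 3. After median of ratios scaling 7 were higher and 1 lower. The cell cycle factor genes E2f1 and E2f2 moved apart, E2f1 from 676, 650.2 and 638 to 1321, 1384 and 1237 (log2 fold change 1.00, SE 0.12, limma adjusted p = 3.25e-05) and E2f2 from 713, 771 and 824 to 374, 357 and 376 (log2 fold change -1.05, SE 0.13, limma adjusted p = 5.51e-05).

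Survival and p53 target genes did not move as a block: 6 of 17 tested rose, 4 fell and 7 did not pass. Median of ratios scaling gave 10 higher and 2 lower. Cdkn1a, the cell cycle inhibitor p21, was at 723, 688 and 778 and 2676, 2028 and 2307 (log2 fold change 1.67, SE 0.09, limma adjusted p = 9.34e-07). Bax, a pro-apoptotic pore protein, went from 6052, 6273 and 6391 to 12664, 10251 and 12040.0 (log2 fold change 0.90, SE 0.08, limma adjusted p = 8.19e-06) and Ccng1, cyclin G1, from 10795, 9951 and 10496 to 23465, 16498 and 19007 (log2 fold change 0.90, SE 0.10, limma adjusted p = 2.2e-05), and in adipocyte medium Bax was just below its unconditioned range (5590.2, 5516 and 5674) and Ccng1 overlapped its own (10649.7, 10471 and 9459). Phlda3, an AKT inhibitor and p53 target, rose by 2.18. Rrm2b, a ribonucleotide reductase subunit that p53 also induces, fell from 921, 934 and 1086 to 396, 437 and 519.7 (log2 fold change -1.12, SE 0.11, limma adjusted p = 8.1e-06). Groups did not overlap for the genes named here.

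Genes for lysosomal enzymes were lower on the deposited scale. Of 25 tested, from a list of 52, 13 fell, 4 rose and 8 did not pass, with a median of -0.39, and median of ratios scaling gave 7 lower and 10 higher. Arsb, which removes sulfate from dermatan and chondroitin chains, fell from 1148, 1522 and 1765 to 371, 437 and 417 (log2 fold change -1.83, SE 0.16, limma adjusted p = 5.16e-06), and Naglu, of heparan sulfate breakdown, from 1003, 1102 and 1136 to 381, 309 and 423 (log2 fold change -1.55, SE 0.14, limma adjusted p = 7.5e-06). Idua, which acts on heparan and dermatan sulfate and shares exon bases with Slc26a1 and Dgkq on the other strand, fell by 1.16 and Hgsnat and Sgsh by 0.77 and 0.71 on the log2 scale. The cysteine protease genes parted: Ctsf went from 673, 675 and 615 to 169, 175 and 214 (log2 fold change -1.82, SE 0.14, limma adjusted p = 3.18e-06) and Ctsl from 1831, 1692 and 1713 to 4025, 3171 and 3571 (log2 fold change 1.03, SE 0.09, limma adjusted p = 4.27e-06). For these proteases the groups were wide apart in both directions. Of 40 tested histone genes 32 did not pass, 4 rose and 4 fell, with 1 or 2 rises when any library but the stromal one of mouse 3 was left out, and 9 rises and 3 falls by median of ratios scaling. All 40 were lower in stromal than in adipocyte medium, against 34% of all tested genes. The authors' stromal table held 2 of the 40, and the others were listed for adipocyte medium alone, so this comparison is not free of that selection. H1f0, a linker histone of non-dividing cells, was at 937, 1091 and 996 and 447, 425 and 437 (log2 fold change -1.20, SE 0.11, limma adjusted p = 8.1e-06).

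**Figure D4:**
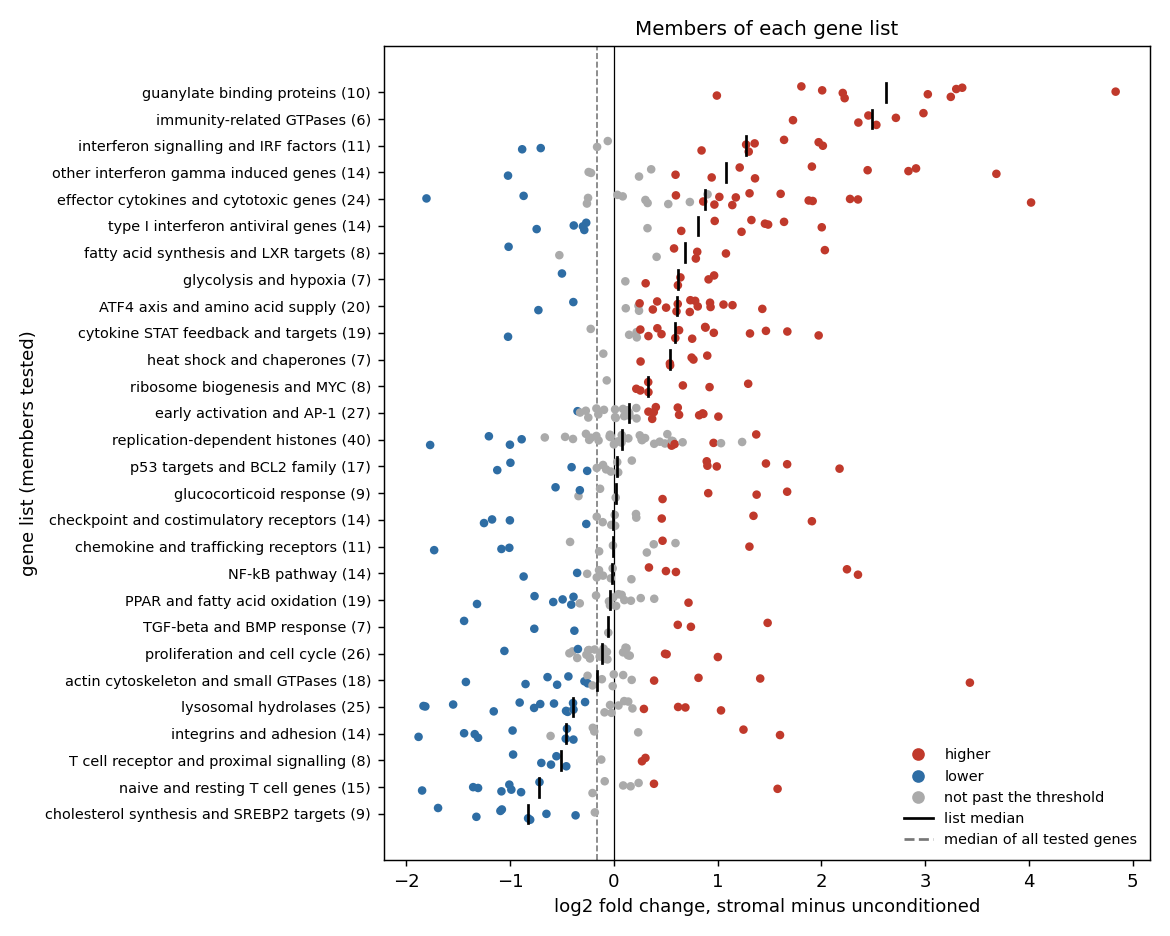
Log2 fold change between stromal and unconditioned medium (horizontal axis) of each tested member of the gene lists with at least 6 tested members (vertical axis, number tested in brackets). Points are genes coloured by call, black ticks are list medians and the dashed line is the median of all tested genes. The GTPase lists lie wholly to the right, with medians of 2.63 and 2.49, and the cholesterol list to the left at -0.83.

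Outside the lists the largest rises were of mixed function. Klrb1f, a C-type lectin-like receptor of the NKR-P1 family that lymphocytes carry, was at 139, 118 and 102 in unconditioned, 2037, 910.2 and 1279 in stromal and 41.7, 59.4 and 28.3 in adipocyte medium (log2 fold change 3.48, SE 0.28, limma adjusted p = 3.64e-06). The media did not overlap, and the order of the stromal libraries was that of the GTPases. Spp1, encoding the secreted phosphoprotein osteopontin, went from 111, 118 and 63.8 to 491, 551 and 1332 (log2 fold change 2.90, SE 0.45, limma adjusted p = 0.000229), and Myo6, a myosin that moves toward the minus end of actin, from 344, 332 and 379 to 1693, 2314 and 3346 (log2 fold change 2.74, SE 0.25, limma adjusted p = 7.69e-06). For both the stromal library of mouse 3 was the highest, as it was for 9 of the 10 tested macrophage and monocyte markers, of 30 on that list. The summed level of those markers was 4865, 6625 and 9222 in unconditioned and 4849, 6083 and 10499 in stromal libraries. Mouse 3 thus had the highest sum in both media, while Spp1 was lowest in mouse 3 in unconditioned medium. The part of macrophages in Spp1 and Myo6 was not tested. Without the stromal library of mouse 3 Spp1 was at 2.25 on the log2 scale. Of the 10 markers 2 rose, 3 fell and 5 did not pass, with 1 rise without the library of mouse 2 in either medium, and 4 rises and 2 falls by median of ratios scaling: the endotoxin co-receptor gene Cd14 went from 87.1, 115 and 189.7 to 406, 370.0 and 797 (log2 fold change 1.99, SE 0.17, limma adjusted p = 5.16e-06), and Adgre1, encoding the macrophage antigen F4/80, from 75.7, 70.4 and 164 to 33.4, 15.2 and 67.1 (log2 fold change -1.53, SE 0.34, limma adjusted p = 0.00262). Olfr56, at 3.84 on the log2 scale, has exon bases in common with the interferon-induced GTPase gene Ifi47, so its value may be that of Ifi47.

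Outside the lowest 25% of means the largest falls lay outside the lists for the most part. Scaper, a cyclin A binding protein of the endoplasmic reticulum, fell from 1261, 1173 and 1292 to 229, 343 and 172 with 1973, 1689 and 2479.6 in adipocyte medium (log2 fold change -2.38, SE 0.22, limma adjusted p = 8e-06). Ggt1, which cleaves extracellular glutathione, went from 284, 381 and 385 to 74.3, 117 and 85.0 with 591, 508 and 569 in adipocyte medium (log2 fold change -1.93, SE 0.19, limma adjusted p = 9.7e-06). In both the stromal libraries were the lowest and the adipocyte libraries the highest, without overlap. Rgs11, a regulator of G protein signalling, was at 854, 867 and 929 and 160.3, 273 and 251 (log2 fold change -1.98, SE 0.16, limma adjusted p = 4.16e-06), and Dennd1c, an activator of Rab GTPases, at 5195, 5292 and 5854 and 1358, 1623 and 1549 (log2 fold change -1.85, SE 0.09, limma adjusted p = 4.77e-07). Rgs11 in adipocyte medium overlapped its unconditioned level at 829.8, 765 and 926, although it shares exon bases with Arhgdig on the other strand. Other genes among the largest falls were low in both conditioned media, among them Slc25a35, a mitochondrial carrier, Tmem35b, Haao, of tryptophan breakdown, and Ifitm10. Tmem35b was at 504, 633 and 675 in unconditioned, 136, 137 and 140.1 in stromal and 109, 106 and 105 in adipocyte medium, with no overlap of stromal and unconditioned libraries. Their log2 fold changes were -2.26, -2.12, -1.90 and -1.96. Slc25a35 shares exon bases with Rangrf and Tmem35b with Zmym6. Outside the lowest 25% of means, every one of the 12 largest rises and 12 largest falls of named genes kept its direction and its call in all 20 alternative settings.

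Over all tested genes 614 were higher and 1051 lower in stromal medium, and 222 (7.74%) and 343 of these changed at least 2-fold. The split depends on how libraries are scaled. Median of ratios over the listed genes raised every log2 difference by 0.36 and gave 1142 higher and 564 lower, TMM raised it by 0.14 and gave 788 and 815, and the median of ratios over the 6 libraries raised it by 0.17 and gave 831 and 777. Directions in the text are those of the deposited scale, and small falls in particular are relative to it. The response was of the same sign in all 3 mice for 2254 genes, including 1662 of the 1665 called. Stromal and unconditioned libraries did not overlap for 721 genes higher (25.1%) and 1268 lower (44.2%). Large changes leaned to rises: 63 genes rose at least 4-fold and 16 fell as far, and 18 rose and 4 fell at least 8-fold.

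The 4 deepest falls, chosen after their values were seen, were of scarce transcripts. Lrrc75b had 101, 154 and 247 reads in unconditioned and 1, 9 and 9 in stromal libraries (log2 fold change -4.94, SE 0.64, limma adjusted p = 6.55e-05), and was at -4.00 without the stromal library of mouse 1. Krt80, a keratin, had 15, 41 and 36 against 1, 2 and 3, Arhgef37, a guanine nucleotide exchange factor, 15, 29 and 40 against 0, 0 and 7, and Rtn1, a reticulon, 10, 26 and 30 against 0, 13 and 0. Without the stromal library of mouse 3 the log2 fold changes of Krt80, Arhgef37 and Rtn1 were -4.11, -4.53 and -2.54, against -3.48, -3.72 and -3.34 with all libraries, and Rtn1 was at -4.48 without the stromal library of mouse 2. The call of Rtn1 ended without the unconditioned library of mouse 3 or without mouse 1 (adjusted p = 0.0505 and 0.0545). All 4 were also low in adipocyte medium, at 0 to 9 reads a library.

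**Figure D5:**
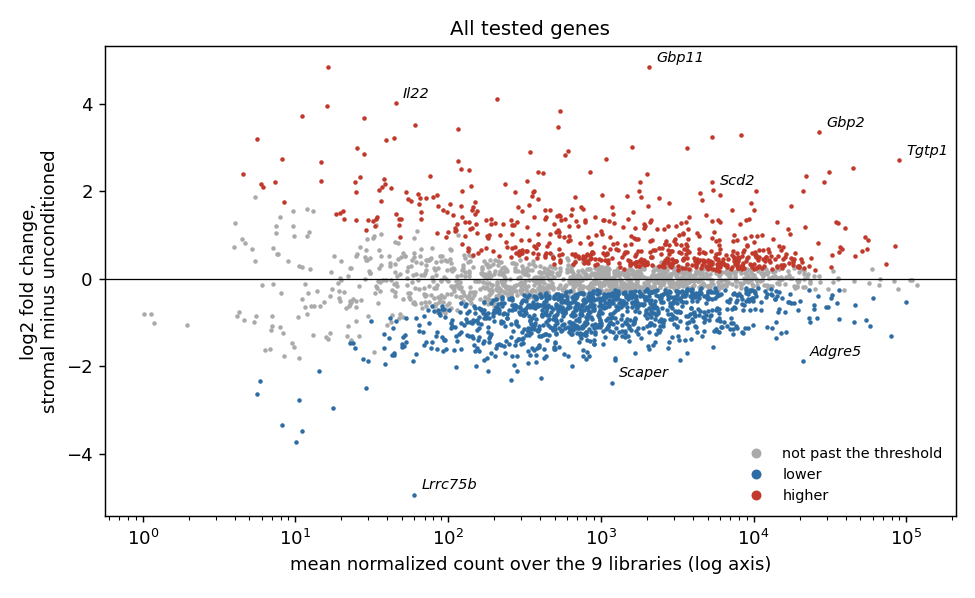
Log2 fold change between stromal and unconditioned medium (vertical axis) against the mean normalized count over the 9 libraries (horizontal log axis) for the 2868 tested genes. Points are genes, red where higher, blue where lower and grey where not past the threshold. The highest points at large means are GTPase genes such as Gbp11, Gbp2 and Tgtp1, and the deepest fall, Lrrc75b, has a low mean.

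Of the 2396 genes that the authors listed for adipocyte medium alone, 445 (18.6%) were higher and 752 (31.4%) lower in stromal medium, and 148 (6.18%) changed at least 2-fold. The authors' own gene clusters sorted the response: cluster 4 held 122 tested genes, of which 117 rose and 0 fell, and cluster 3 held 222, of which 221 fell and 0 rose. Clusters 1 and 2 gave 428 higher and 62 lower of 913, and 69 higher and 768 lower of 1611. The clusters were made from these same values, so this is a description. Of 20 T cell markers 4 were tested, and their summed level was 86513 to 97969 in unconditioned and 72070 to 73297 in stromal libraries. Which markers are in the sample table was set by the authors' calls, so such sums cannot rank cell types or check the label. Dendritic cell markers summed to 5193 to 6132 and 6696 to 9235, and neutrophil markers to 2032 to 3108 and 2201 to 3700. The dendritic sum holds Irf8, which alone went from 1104, 1126 and 1172 to 3565, 2533 and 2721. Irf8 and Xcr1 were the 2 of 9 tested dendritic markers called higher, and 2 were lower. Median of ratios scaling gave 4 higher and 1 lower. Erythroid and platelet markers summed to 2338 to 2478 and 4068 to 5229 without overlap, on 2 tested members of 18, Car1 and Tfrc, both called higher; Tfrc is also made by activated T cells. Of the stromal and fibroblast markers 1 of 22 was in the table, and of the adipocyte markers 1 of 14, so carry-over of those cells could not be measured from most of their markers.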

How the data were processed

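Total RNA of splenic T cells was measured by RNA-seq in 9 samples, and the 6 in stromal and unconditioned medium were compared with all 9 in the fit. Per the labels' protocols, cDNA was made with SMART-seq v4 and libraries with Nextera XT, kits that do not keep strand. DESeq2, featureCounts, Trimmomatic and FastQC appear in the submitters' processing notes with no version, as do 3 builds, mouse GRCm39 and human GRCh38 and hg38, with no role. The sources used here state no aligner or annotation. The deposited signal is a read count divided by 1 size factor per sample: 100% of values are whole multiples of a sample's smallest step within 0.001 reads. The authors' tables (mean signal, log2 fold change, Wald score, p-value) served here to record which genes they had selected, and none of their values is used.

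Values were tested as log2(value + 1), which understates changes of low genes, with limma-trend (limma 3.58.1, R 4.3.3) on 2868 genes whose mean reached 1; 21 genes were not tested. The model held group and mouse, tests were two-sided, and a Benjamini-Hochberg adjusted p under 0.05 was the threshold. The labels give the mouse of each sample: same-mouse deviations from the group means correlated across genes at 0.26, 0.13 and 0.21, and other pairs at -0.20 to -0.017. An exact permutation test of 3 samples against 3 cannot go below 0.1. The statistics were tested on simulated data. Alternatives were other pseudocounts, filters, scalings, the fit without the mouse, the 6 samples alone, edgeR 4.0.16 on the recovered whole reads, and leaving out each library or mouse.

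Members and lists were chosen with earlier results of these data known. There were 32 lists of pathway genes and 9 of markers. Genes were named by a rule: the 12 largest rises and 12 largest falls past the threshold with 1 sign in all 3 mice, outside the lowest 25% of means and leaving out unnamed models, pseudogenes and receptor segments; up to 6 members of each list by adjusted p; and 12 single genes. Some genes that the rule names are not reported here. Other genes were named after their values were seen. Symbols are those of the files. Promoter windows are from RefSeq (GRCm38.p6), and shared exons from GENCODE M21 (GRCm38), which may not be the authors' annotation.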

Additional observations from a re-analysis of the deposited data

How the results depend on the processing

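The scaling of the libraries moved the counts most. With all 9 libraries rescaled by the median of ratios over the listed genes, 1142 genes were higher and 564 lower, and 124 were at least 2-fold lower, against 614, 1051 and 343. At least 2-fold lower were also 216 genes with the median of ratios over the 6 libraries, an alternative chosen after seeing the data, and 228 with TMM. Of the 1665 called genes 70.8%, 83.5% and 85.8% were called in the same direction under these 3 scalings. Leaving out a library or mouse gave 448 to 588 genes higher and 821 to 969 lower, and at least 2-fold 204 to 212 higher and 315 to 353 lower. Without the mouse as a replicate block over 9 samples 606 were higher and 1049 lower, and 97.3% of the 1665 calls were shared. With the 6 samples alone the block gave 681 and 1209, and no block 655 and 1163. Among the genes followed, the 9-sample fit without the block ended the call of Hsph1 and added that of Cenpe. EdgeR on recovered reads called 610 and 1067, and shared 98.8% of the 1665 calls.

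Directions turned for small differences. By the median of ratios the log2 fold changes were Cd27 0.0916, Ndufb3 0.0509, Ndufv1 0.16, Ndufb9 0.25, Ndufa10 0.35, Foxm1 0.0107, Fkbp5 0.0293 and Nr4a1 0.26. Over the 6 libraries they were Ndufb9 0.0621, Ndufa10 0.16 and Nr4a1 0.0761, and by TMM Ndufb9 0.0344, Ndufa10 0.14 and Nr4a1 0.0483. Leaving out a library or mouse gave Gsr -0.054 to 0.2081, Ndufa10 -0.1141 to 0.0845 and Nr4a1 -0.3919 to 0.064. Apart from the constant that a scaling adds, the cause was not tested. Reads here are those on listed genes, not whole library depths, and genes with few reads, such as Il22 with 7 over the unconditioned libraries, have wide errors.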

Other observations

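Families were also grouped by symbol after the values were seen. Over all tested genes 21.4% were higher and 36.6% lower in stromal medium. Of 75 tested Zfp zinc finger genes, many of them repressors that bind DNA, 26 were lower, 8 higher and 41 not past the threshold in stromal medium, with a median of -0.28, while 18 were higher and 4 lower after median of ratios scaling. Of 51 solute carrier genes 13 were higher, 19 lower and 19 not past the threshold (19 higher and 8 lower by the median of ratios). The falls of the Zfp and solute carrier families lie near the share of falls over all tested genes. Of 6 tested Mettl methyltransferase genes 4 were lower, 0 higher and 2 not past the threshold. Both tested Gvin genes, very large interferon-inducible GTPases, were higher, with a median of 1.34.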
